A study of Mus musculus with 10 samples.

Results

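The genes described here are 8 transcriptional targets of the tumour suppressor p53 (Cdkn1a, Mdm2, Ccng1, Bax, Phlda3, Eda2r, Zmat3 and Trp53inp1) together with Ccnd1, which encodes cyclin D1. They were taken by symbol from a table of 29657 genes, and all 9 were found there. The table holds liver RNA-seq values of 10 C57BL/6 mice, every one fed CDAHFD, a choline-deficient high-fat diet that produces fatty liver with inflammation and scarring, for 8 weeks. The control group of 5 mice, labelled WT, received AAV8-NC, an adeno-associated virus that served as the negative control. AAV8-TBG-galectin-3 was given to the remaining 5 mice, whose genotype label is a hepatocyte knockdown of galectin-3. The TBG promoter is active in hepatocytes, so the vector is aimed at that cell type alone, while the RNA came from whole liver. The age of the mice and what the vector encodes beyond its name are not given in the sources used here, and no mice on an ordinary diet were analysed here.

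The p53 protein is a transcription factor that is kept scarce by MDM2, a ubiquitin ligase encoded by one of its own target genes. When DNA damage or other stress stabilises p53, it binds paired decamer elements near its targets and raises genes that halt the cell cycle, repair DNA or start apoptosis. Cdkn1a encodes p21, which inhibits the cyclin-dependent kinases that drive cells from G1 into S phase. Cyclin D1 acts at the same step in the opposite sense, as the partner of CDK4 and CDK6, and it is made by hepatocytes that re-enter the cycle in injured or regenerating liver. In injured liver, p53 targets are known from hepatocytes as well as from the other liver cells.

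RefSeq promoter windows of GRCm38.p6, running from 250 bases before to 50 bases after an annotated start site, matched 6 of the 9 genes with 7 windows; Zmat3, Trp53inp1 and Ccnd1 had no entry. The build behind the deposited values is not known, so these coordinates belong to RefSeq and not to the deposited table. The windows were searched for the p53 decamer consensus, which reads the same on both strands. It was present in 4 of the 7 windows, and in 8.36% of all 32851 windows of that length. These 4 are shown because they carry the element while their genes behaved differently in the livers, as the values further on show. Capitals mark the decamer.

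Cdkn1a promoter, chr17:29090729-29091028, plus strand: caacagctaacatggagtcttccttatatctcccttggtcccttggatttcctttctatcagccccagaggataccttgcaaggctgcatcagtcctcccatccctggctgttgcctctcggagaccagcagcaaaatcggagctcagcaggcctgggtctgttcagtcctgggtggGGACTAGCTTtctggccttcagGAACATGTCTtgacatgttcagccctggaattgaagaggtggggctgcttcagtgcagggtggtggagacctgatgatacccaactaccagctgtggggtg
Ccng1 promoter, chr11:40755237-40755536, minus strand: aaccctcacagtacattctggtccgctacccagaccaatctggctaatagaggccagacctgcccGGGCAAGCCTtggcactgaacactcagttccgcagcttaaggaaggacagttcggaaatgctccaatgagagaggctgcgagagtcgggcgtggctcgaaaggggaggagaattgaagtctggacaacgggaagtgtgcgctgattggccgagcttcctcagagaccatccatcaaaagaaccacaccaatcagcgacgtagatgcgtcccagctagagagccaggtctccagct
Mdm2 promoter, chr10:117710709-117711008, minus strand: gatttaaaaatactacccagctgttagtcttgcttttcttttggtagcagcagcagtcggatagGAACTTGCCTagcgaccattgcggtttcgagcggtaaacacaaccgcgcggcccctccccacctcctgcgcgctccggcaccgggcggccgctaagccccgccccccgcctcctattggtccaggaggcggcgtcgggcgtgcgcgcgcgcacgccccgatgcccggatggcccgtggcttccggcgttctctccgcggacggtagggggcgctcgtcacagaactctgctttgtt
Bax promoter, chr7:45466849-45467148, minus strand: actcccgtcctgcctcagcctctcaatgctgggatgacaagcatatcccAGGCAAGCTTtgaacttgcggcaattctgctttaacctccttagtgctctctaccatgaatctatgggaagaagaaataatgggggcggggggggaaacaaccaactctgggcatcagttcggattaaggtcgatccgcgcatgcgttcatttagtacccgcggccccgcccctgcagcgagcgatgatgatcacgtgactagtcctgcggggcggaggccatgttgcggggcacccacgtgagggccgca

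The Cdkn1a window belongs to the upstream of 2 annotated start sites, and held 2 decamers, GGACTAGCTT and GAACATGTCT, whose first bases lay at -73 and -51 from the start site. GAACATGTCT is followed directly by tgacatgttc, so that the hexamer ACATGT, its own reverse complement, occurs at 2 places that lie 10 bases apart. The other windows held a single decamer each, GGGCAAGCCT in Ccng1, GAACTTGCCT in Mdm2 and AGGCAAGCTT in Bax, with the first base at -185, -186 and -201. The hexamer ACATGT overlaps the decamer GAACATGTCT, was found in 5.28% of all windows, and also lay 44 bases after the start site of Phlda3. The Eda2r window and the downstream Cdkn1a window held neither. A match describes letters only and does not show that p53 binds there.

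Values are FPKM, fragments scaled to transcript length and to the mapped fragments of the library, and the groups were compared on log2(FPKM + 1) with limma across 13471 genes that reached 0.5 FPKM in at least 5 libraries. A gene is called lower or higher at a Benjamini-Hochberg adjusted p under 0.05 over all genes tested. Lgals3, the gene of galectin-3, stood at 70.8 ± 22.9 FPKM in the control group and at 74.2 ± 20.1 FPKM in the other (SD, n = 5 each), so the targeted transcript was not detectably lower in whole liver (limma adjusted p = 0.856, 95% interval of the fold from 0.722 to 1.54). The group is therefore called labelled knockdown, and the libraries are numbered as in the labels. Hepatocyte markers took 33995 to 38113 FPKM in sum in the control libraries and 30273 to 38065 FPKM in the labelled knockdown libraries, with 0 of 7 at 0 throughout; 3 of the 7 were called lower and 1 higher. Markers of T and NK cells (2 tested) and neutrophils (3 tested) had 0 calls, sinusoidal endothelium had 1 of 5 lower, and 0 of 4 B and plasma cell markers were tested. The labels do not say more of the mice behind the libraries, so p-values measure the spread between these samples.

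Of the 9 genes, 4 fell in the labelled knockdown livers and 0 rose. Zmat3, Ccng1, Phlda3 and Eda2r had ratios of group mean FPKM between 0.450 and 0.709. Cdkn1a, Mdm2, Trp53inp1, Bax and Ccnd1 did not pass the test. Across the table, 9.65% of tested genes were called lower and 7.13% higher, 1300 and 960 genes, a split that became 1017 lower and 1212 higher under median-of-ratios scaling. All 9 genes reached the expression minimum; Eda2r did so in 6 libraries, 5 of them controls, so its inclusion rested on the group in which it was high. The median log2 fold change of the 9 genes was -0.40, and that of all tested genes was -0.04. The authors' deposited table gave a q-value under 0.05 for 3 of the 9 genes, Zmat3, Ccng1 and Phlda3, and for 8.84% of all its genes, and it marked 0 of the 9 as significant, a mark that 1.34% of its genes carried.

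**Figure D1:**
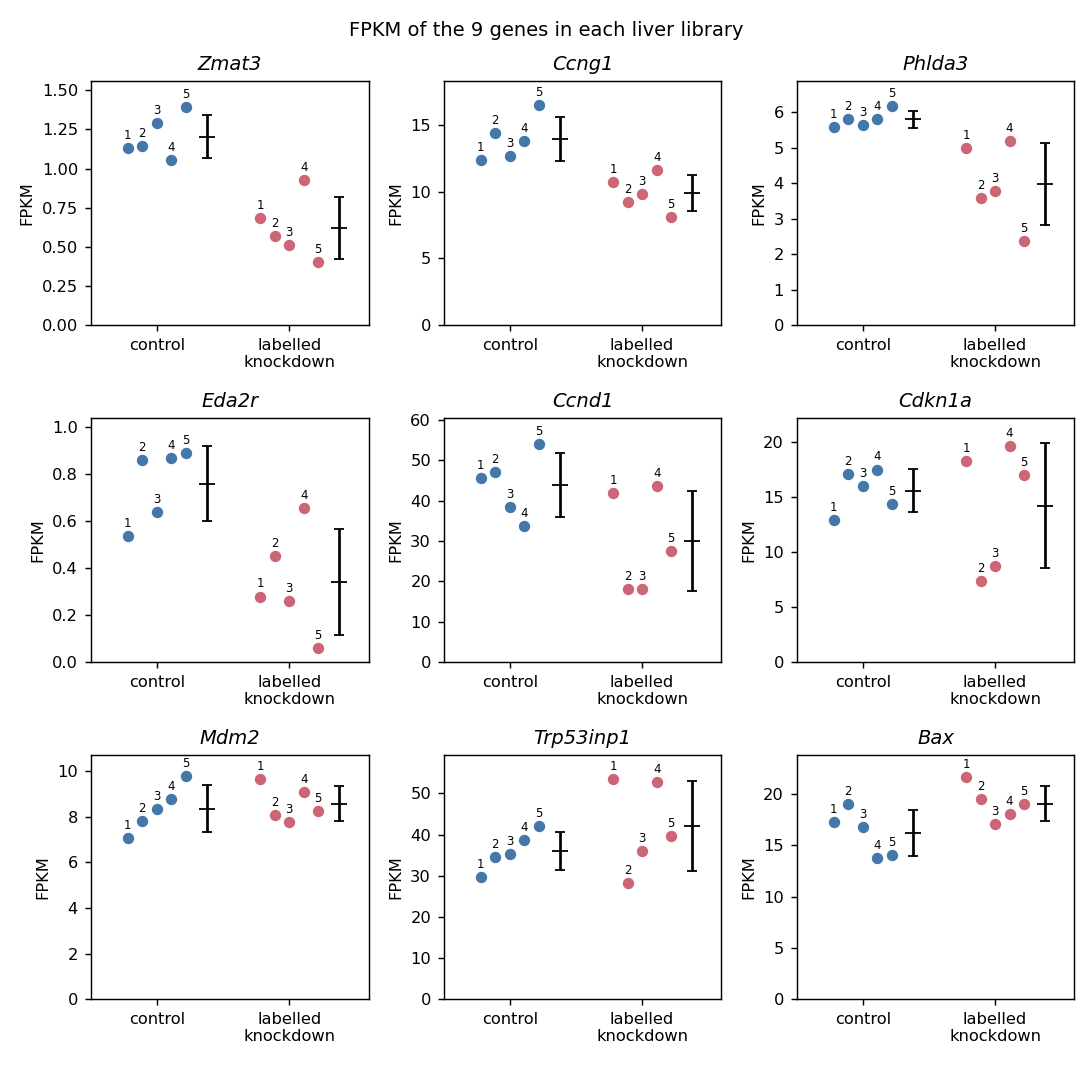
FPKM of the 9 genes in each library (points, numbered as in the labels; blue control, red labelled knockdown), with group mean and SD (black, n = 5); each panel has its own vertical axis from 0. Zmat3, Ccng1 and Phlda3 do not overlap between the groups, while Cdkn1a and Ccnd1 are low in labelled knockdown 2 and 3.

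Zmat3 encodes an RNA-binding zinc finger protein that p53 induces and that takes part in its tumour suppression. The control libraries 1 to 5 held 1.13, 1.15, 1.29, 1.06 and 1.39 FPKM of Zmat3, against labelled knockdown values, in the same order, of 0.682, 0.569, 0.515, 0.924 and 0.401 FPKM. All labelled knockdown libraries were below the lowest control. Group means were 1.20 ± 0.135 and 0.618 ± 0.199 FPKM, a fall of 48.7%, with a log2 fold change of -0.45 (SE 0.09, limma adjusted p = 0.0131). The exact two-sided permutation test gave p = 0.00794, the smallest that the 252 assignments of 5 and 5 libraries allow. Zmat3 was called in each of the 9 alternative settings and in 10 of 10 fits on 9 libraries.

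Ccng1 encodes cyclin G1, a cyclin without a known role in driving the cycle, which recruits a phosphatase to MDM2 and takes part in feedback on p53. It held 12.3, 14.4, 12.7, 13.8 and 16.5 FPKM in control libraries 1 to 5, and 10.7, 9.25, 9.79, 11.6 and 8.10 FPKM in labelled knockdown libraries 1 to 5. The highest labelled knockdown library, 4, stood below the lowest control, 1. Ccng1 fell by 29.1% between group means of 13.9 ± 1.66 and 9.88 ± 1.34 FPKM (-0.46 in log2, SE 0.10; adjusted p = 0.0175 in limma; exact permutation p = 0.00794). It too was called in all 9 alternative settings and all 10 fits without 1 library. Its promoter is the one shown above with GGGCAAGCCT.

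Phlda3 encodes a small protein with a pleckstrin homology domain that competes with AKT for membrane lipids and so restrains AKT. Control libraries 1 to 5 held 5.58, 5.83, 5.64, 5.83 and 6.19 FPKM, the narrowest spread of the 9 genes on the log2 scale in either group (SD 0.05), and labelled knockdown libraries 4.99, 3.59, 3.79, 5.21 and 2.37 FPKM (SD 0.35). The groups did not overlap. Mean Phlda3 was 5.81 ± 0.237 FPKM in controls and 3.99 ± 1.15 FPKM in the other group, a log2 difference of -0.48 (SE 0.14; adjusted p = 0.0418 in limma and exact permutation p = 0.00794). It was called in 2 of 10 fits that dropped a library, where the adjusted p reached 0.0825, and was lost with no expression minimum (0.106) and with a replicate block (0.0626).

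Eda2r encodes a receptor of the tumour necrosis factor receptor family whose ligand is the A2 form of ectodysplasin. It was the lowest of the 9 genes, with 0.536, 0.858, 0.640, 0.867 and 0.887 FPKM in control libraries 1 to 5 and 0.279, 0.450, 0.259, 0.654 and 0.0612 FPKM in labelled knockdown libraries 1 to 5. Labelled knockdown 4 lay inside the control range, and the other labelled knockdown libraries lay below it. Eda2r fell from 0.757 ± 0.159 to 0.341 ± 0.223 FPKM, a ratio of 0.450, the smallest of the 9 (-0.40 in log2, SE 0.12; adjusted p = 0.0395 in limma; exact permutation p = 0.0238). With a pseudocount of 0.1 the log2 fold change became -1.11, since the pseudocount of 1 weighs on so low a gene, and the adjusted p rose to 0.0576. The call held in 4 of the 8 alternative settings that kept the gene and in 2 of the 10 fits without 1 library. Eda, the ligand gene, did not reach the expression minimum in any library, at 0.139 to 0.462 FPKM.

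Of the 9 genes, 3 did not overlap between the groups in the lower direction and 0 in the higher one, where 7.48% of tested genes did not overlap as lower and 5.66% as higher. The 4 genes that fell also shared an order among the labelled knockdown libraries: in each of them, library 4 was highest and library 5 lowest. The summed level of 7 stellate cell and myofibroblast markers, at 83.8 to 98.1 FPKM in the control libraries, took 89.7, 62.7, 69.9, 96.1 and 50.0 FPKM in labelled knockdown libraries 1 to 5, with the same libraries at both ends. Of these markers 1 of 7 was called lower, 0 were called higher and 0 were at 0 throughout. The order of all 5 labelled knockdown libraries was the same for this sum, for Phlda3 and for Ccng1. Dcn, the largest part of the sum, Col1a1, Col3a1 and Pdgfrb were lowest in labelled knockdown 5. Acta2 was highest there, at 2.73 FPKM, and Des and Lrat were not lowest there. The controls did not share this order. Control 5 held the most Phlda3 and Ccng1, at a marker sum of 86.9 FPKM. Control 1 held the least of both, at a sum of 95.0 FPKM. Kupffer cell markers, of which 5 of 6 were tested and 2 called lower, summed to 56.4 to 139 FPKM in the control libraries and to 27.6 to 64.6 FPKM in the labelled knockdown libraries. Markers of lipid-associated macrophages, with 0 of 6 called, summed to 227 to 531 FPKM in the control libraries and to 104 FPKM in labelled knockdown 5, their lowest, against 242 to 383 FPKM in the other labelled knockdown libraries. Cholangiocyte markers summed to 7.88 to 24.8 and to 2.72 to 15.6 FPKM, and 0 of 4 tested were called. Their sum too was highest in labelled knockdown 4 and lowest in labelled knockdown 5. Its order over all 5 labelled knockdown libraries was that of Zmat3. Among the controls the cholangiocyte sum was highest in control 1, and Zmat3 in control 5. The part of these cells in the fall of the 4 genes was not tested, and in whole liver fewer cells of a type and less RNA per cell cannot be told apart. Transcript length differed widely among the 9 genes. Zmat3 has the longest annotated transcript of the 9, 7797 bases, longer than 93.3% of tested genes, and Phlda3 one of 1435 bases, longer than 19.5%. With the length trend of every library taken out, Zmat3, Ccng1 and Phlda3 kept their call (limma adjusted p = 0.0205, 0.0263 and 0.0293) and Eda2r lost it (0.0824).

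**Figure D2:**
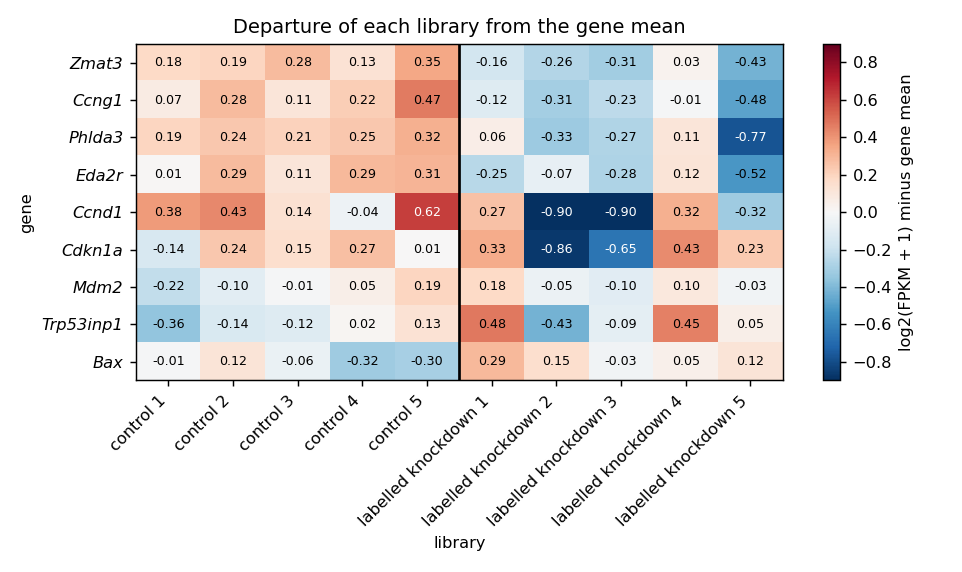
Departure of each library (columns) from the mean of each gene (rows) on the log2(FPKM + 1) scale, red above and blue below. The upper 4 rows are mostly blue to the right of the line that divides the groups, with the lowest cells in labelled knockdown 5, and the rows of Ccnd1 and Cdkn1a are darkest in labelled knockdown 2 and 3, at -0.90 and -0.90 for Ccnd1.

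Cdkn1a, the p21 gene, split the labelled knockdown libraries. It held 18.2, 7.41, 8.73, 19.6 and 17.0 FPKM in labelled knockdown libraries 1 to 5, and 12.9, 17.1, 16.0, 17.5 and 14.4 FPKM in the control libraries. Labelled knockdown 2 and 3 lay below every control, and 1 and 4 lay above every control. The group means of 15.6 ± 1.93 and 14.2 ± 5.68 FPKM were not told apart (-0.21 in log2, SE 0.24; adjusted p = 0.570 in limma; exact permutation p = 0.452), and the 95% interval of the fold ran from 0.600 to 1.24. The difference was -0.02 without labelled knockdown 2, -0.07 without 3, -0.32 without 1, -0.34 without 4 and -0.49 with array weights, and was not called in any of these. The SD on the log2 scale was 0.17 in the control group and 0.60 in the other, the widest of the 9 genes. Its upstream promoter is the one shown above with GAACATGTCT, and the deposited values do not separate its start sites.

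Ccnd1 followed a similar split. It held 45.5, 47.1, 38.3, 33.7 and 54.1 FPKM in control libraries 1 to 5, and 42.0, 18.2, 18.2, 43.7 and 27.6 FPKM in the labelled knockdown libraries. Labelled knockdown 2, 3 and 5 lay below every control, and 1 and 4 within the control range. Ccnd1 had the most negative difference of the 9 genes on the log2(FPKM + 1) scale, while its ratio of means, 0.684, was nearer 1 than those of Eda2r and Zmat3; with a pseudocount of 0.1 the log2 differences were -0.63 for Ccnd1, -1.11 for Eda2r and -0.90 for Zmat3. It did not pass the test, at 43.8 ± 7.94 and 29.9 ± 12.4 FPKM (-0.61 in log2, SE 0.25; adjusted p = 0.109 in limma; exact permutation p = 0.0873). Its 95% interval ran from 0.449-fold to 0.954-fold before adjustment over genes. It passed as lower with array weights (adjusted p = 0.0248) and without labelled knockdown 4 (0.0445), in 1 of 9 alternative settings and 1 of 10 fits without 1 library.

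**Figure D3:**
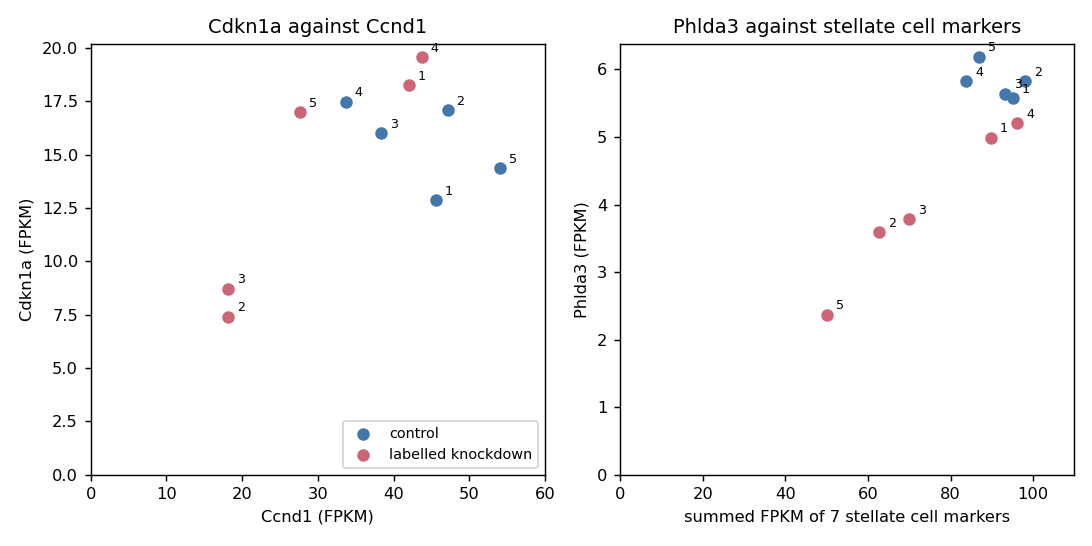
Left, Cdkn1a against Ccnd1 in FPKM; right, Phlda3 against the summed FPKM of 7 stellate cell markers; each point is a library, blue control and red labelled knockdown, numbered as in the labels. On the left labelled knockdown 2 and 3 stand apart at low values of both genes, at 7.41 and 8.73 FPKM of Cdkn1a, and on the right the labelled knockdown libraries range from 2.37 to 5.21 FPKM of Phlda3.

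The ratio of Cdkn1a to Ccnd1, which does not depend on how a library is scaled apart from the pseudocount, was compared on the log2 scale. It was -1.42 ± 0.38 in the control group and -1.02 ± 0.21 in the labelled knockdown group (SD, n = 5 each), a difference of 0.40 (exact two-sided permutation p = 0.0873, 0.175 adjusted over the 2 ratios compared). Labelled knockdown 2 and 3, low in both genes, had ratios of -1.19 and -0.98, and the other labelled knockdown libraries ranged from -1.16 to -0.67. Without control 4 the difference was 0.53 and the exact permutation p was 0.00794. Leaving out any other single library gave an exact permutation p from 0.0873 to 0.183, and a pseudocount of 0.1 gave 0.111. The ratio of Mdm2 to Cdkn1a was -0.82 ± 0.20 in the control group and -0.58 ± 0.52 in the other (difference 0.25, exact permutation p = 0.365, adjusted 0.365), with 0.11 and -0.15 in labelled knockdown 2 and 3 and -1.03 to -0.85 in the other labelled knockdown libraries. This difference was 0.07 without labelled knockdown 2 and 0.14 without 3.

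The transcripts most like Cdkn1a and Ccnd1 across the 10 libraries were sought among 10380 other named genes averaging 1 FPKM or more, by Pearson's r of log2(FPKM + 1), given as a description. For Cdkn1a they were Gtf2e2 (r = 0.96), which encodes a subunit of the general transcription factor TFIIE, Pip5k1a (0.93), a phosphoinositide kinase gene, Gfpt1 (0.90), Tuba1a (0.90) and Pebp1 (0.89). For Ccnd1 they were Ppp1r3e (0.95), Api5 (0.95), Appbp2 (0.95), Set (0.94) and Ddx3y (0.94). All 10 were lowest in labelled knockdown 2 or 3, as in Gfpt1, at 3.73 FPKM in labelled knockdown 2 and 4.81 in 3 against 5.72 to 7.26 FPKM in the control libraries. This low point goes with the way they were picked, since Cdkn1a and Ccnd1 were lowest in the same libraries. None of the 10 was called between the groups.

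Mdm2 stayed close between the groups. It held 7.07, 7.82, 8.33, 8.78 and 9.76 FPKM in the control libraries and 9.64, 8.09, 7.77, 9.06 and 8.24 FPKM in the labelled knockdown libraries, which all lay within the control range. The log2 fold change was 0.03 (SE 0.09, limma adjusted p = 0.814; exact permutation p = 0.706), and the 95% interval of the fold, 0.894 to 1.17, was the narrowest around 1 among the 5 genes that did not pass. Without control 1 or labelled knockdown 1 the sign turned, to -0.02 and -0.005.

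Bax encodes a pore-forming protein of the mitochondrial outer membrane that executes apoptosis. It held 17.3, 19.0, 16.7, 13.8 and 14.0 FPKM in the control libraries and 21.6, 19.4, 17.0, 18.1 and 19.0 FPKM in the labelled knockdown libraries. Labelled knockdown 1 and 2 lay above every control, and the other 3 within the control range. Its means were 16.2 ± 2.24 and 19.0 ± 1.70 FPKM (0.23 in log2, SE 0.10; adjusted p = 0.132 in limma; exact permutation p = 0.0635). It was called in 0 of 9 alternative settings. The log2 difference was 0.15 under array weights and 0.13 with the length trend removed (limma adjusted p = 0.277 and 0.391).

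Trp53inp1 encodes a stress-induced nuclear protein that promotes p53 activity and takes part in autophagy. The control libraries held 29.6, 34.6, 35.2, 38.8 and 42.0 FPKM, and those of the labelled knockdown group 53.6, 28.2, 35.9, 52.7 and 39.7 FPKM. Labelled knockdown 1 and 4, which were high in Cdkn1a, lay above every control, and labelled knockdown 2 below. The means of 36.0 ± 4.64 and 42.0 ± 11.0 FPKM did not pass the test (0.19 in log2, SE 0.17; adjusted p = 0.464 in limma; exact permutation p = 0.349). Its difference was 0.09 without labelled knockdown 1, 0.10 without 4 and 0.32 without 2.

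Trp53 itself, the p53 gene, ranged from 9.68 to 13.4 FPKM in the control libraries and from 10.6 to 14.7 FPKM in the others (log2 fold change 0.13, 95% interval -0.13 to 0.38, limma adjusted p = 0.475). Of the 13 genes of p53 and its regulators, 9 were tested, 1 was called higher and 1 lower, and their median log2 fold change was -0.07. Single calls among 9 are close to the shares over all tested genes, 7.13% higher and 9.65% lower. Mdm4, the partner of MDM2 that inhibits p53, rose from 5.63 ± 0.384 to 7.20 ± 1.11 FPKM, above every control in all 5 labelled knockdown libraries (log2 fold change 0.30; adjusted p = 0.0479 in limma). Dropping single libraries kept this call in 2 of 10 fits. Hipk2, a kinase that phosphorylates p53, fell from 1.72 ± 0.292 to 1.18 ± 0.146 FPKM (-0.31, adjusted p = 0.0405), and its call also held in 2 of those 10 fits. Atm, the damage-sensing kinase, reached 0.5 FPKM in 4 libraries, all of them controls, and so was not tested. It ranged from 0.487 to 0.640 FPKM in the control libraries and from 0.307 to 0.402 FPKM in the others, without overlap. The authors' deposited table gave it a q-value of 1.59e-05 and did not mark it as significant.

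Of 35 further p53 targets, 31 were tested, and 5 were called lower and 4 higher. Over all tested genes the shares were 9.65% lower and 7.13% higher, and the list was not tested against them. The median log2 difference of the list was -0.13, which became -0.03 without control 4, where that of all tested genes is -0.04 in the full set. Btg2, an antiproliferative gene, had the most negative log2 difference of those tested: its mean was 25.4 ± 2.70 FPKM in controls and 11.4 ± 5.18 FPKM in the labelled knockdown group (-1.16 in log2, SE 0.20; adjusted p = 0.00944 in limma), a call made in 10 of 10 fits on 9 libraries. It held 21.4 to 29.0 FPKM in the control libraries, 7.71 to 10.1 FPKM in 4 labelled knockdown libraries and 20.5 FPKM in labelled knockdown 4. Epha2, a receptor tyrosine kinase gene, fell from a control range of 7.66 to 13.2 FPKM to 5.10 to 7.42 FPKM. Apaf1, the core of the apoptosome (log2 fold change -0.30), Xpc, a DNA damage recognition gene (-0.32), and Ei24 (-0.25) also fell, with adjusted p from 0.0322 to 0.0381. The calls of Apaf1, Xpc and Ei24 held in 3, 3 and 2 of those 10 fits.

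The 4 that rose were Ddit4, Gadd45a, Sesn2 and Dcxr. Dcxr, a carbonyl reductase gene, held 28.5 to 39.1 FPKM in the control libraries and 35.3 to 57.3 FPKM in the others, which overlapped (0.47 in log2; adjusted p = 0.0420 in limma), and its call held in 4 of 9 alternative settings and 2 of 10 fits on 9 libraries. Gadd45a, a growth arrest gene, averaged 13.9 ± 4.61 FPKM in controls and 27.9 ± 6.87 FPKM in the other group, a rise of 0.97 in log2 (SE 0.21; adjusted p = 0.0156 in limma) that was called in 10 of 10 such fits. Sesn2, a sestrin that restrains mTORC1, rose from 5.57 ± 0.972 to 8.33 ± 1.64 FPKM (0.50, adjusted p = 0.0348), a call held in 2 of those fits. Ddit4, another mTORC1 inhibitor, had the largest log2 fold change of the list, 2.19. Ddit4, Gadd45a and Sesn2 are also known targets of stress transcription factors other than p53. The p53 targets Psrc1 and Gtse1, which encode proteins of the mitotic spindle and of G2, were not tested. Each reached 0.5 FPKM in 4 libraries, all of them controls. The authors' deposited table marked both as significant (authors' q = 0.00118 and 0.00142). It also marked Btg2, Gadd45a and Ddit4, and no other gene of this list. Psrc1 ranged from 0.373 to 1.07 FPKM in the control libraries and from 0.162 to 0.367 FPKM in the others, a ratio of means of 0.368. Gtse1 ranged from 0.255 to 1.96 FPKM and from 0.143 to 0.474 FPKM, a ratio of 0.279.

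**Figure D4:**
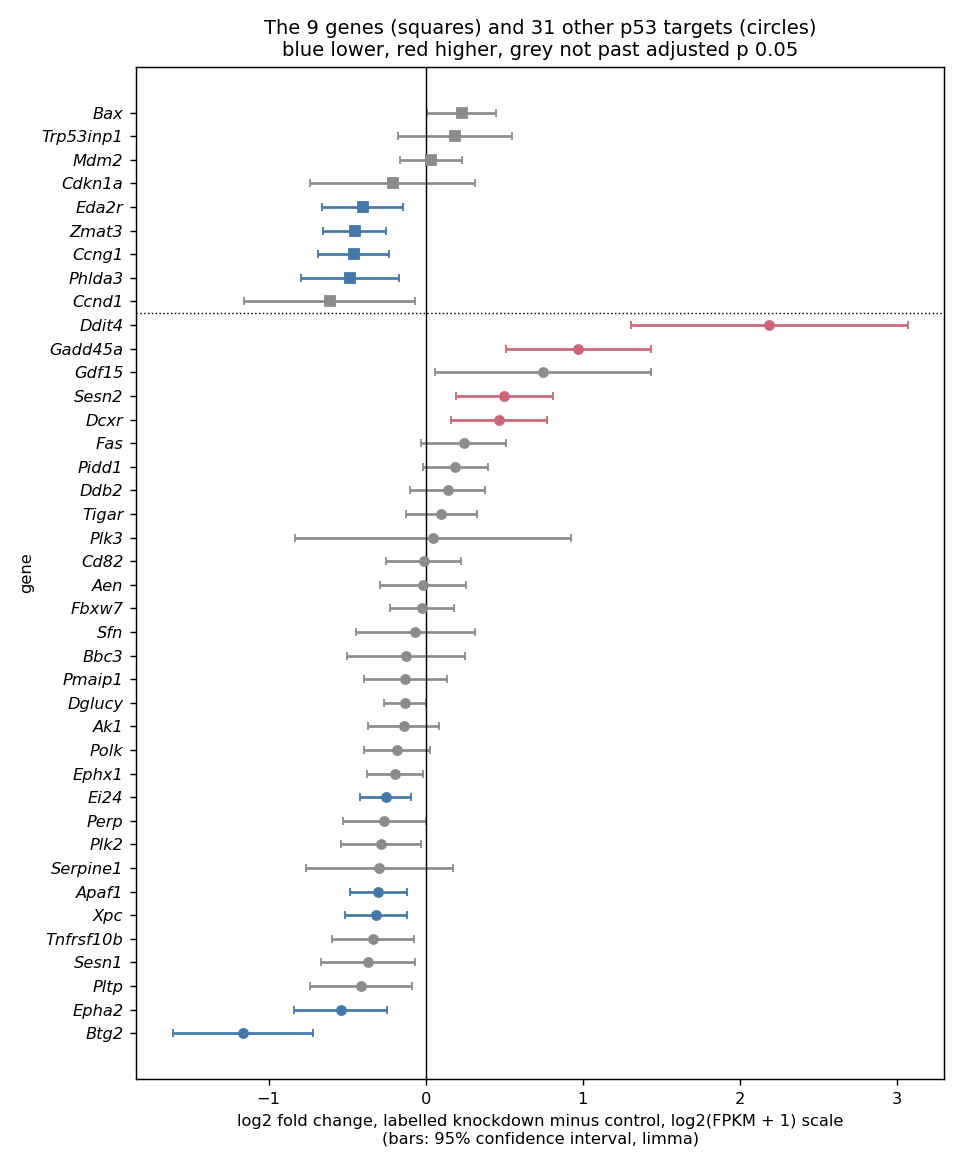
Log2 fold changes with 95% confidence intervals from limma for the 9 genes (squares) and 31 other tested p53 targets (circles), labelled knockdown minus control on the log2(FPKM + 1) scale. Calls in blue (lower) and red (higher) lie on both sides of 0, from -1.16 for Btg2 to 2.19 for Ddit4.

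Around Bax, 13 of 15 genes of the BCL2 family were tested, 1 was called lower and 0 higher, and the median log2 difference was -0.13. A single lower call among 13 is close to the share over all tested genes, 9.65%. Mcl1, which encodes an anti-apoptotic protein that hepatocytes need, went from 55.4 ± 7.09 down to 41.7 ± 3.69 FPKM (-0.40 in log2; adjusted p = 0.0229 in limma), with the call kept in 8 of 10 fits on 9 libraries. Bik, a pro-apoptotic member, did not pass (0.41, adjusted p = 0.133). Akt1, which encodes a kinase that PHLDA3 restrains, fell from 16.3 ± 1.19 to 13.2 ± 1.78 FPKM (-0.29, adjusted p = 0.0498), and this call held in 2 of those 10 fits. Around Eda2r, only the adaptor genes Traf6 (-0.20, adjusted p = 0.0941) and Traf3 (-0.12, 0.339) of 5 genes were tested, and 0 were called by limma; at an unadjusted p under 0.05 Traf6 alone passed, and its groups did not overlap.

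Around Ccnd1 and Cdkn1a, 19 of 22 genes of G1 cyclins, their kinases, inhibitors and the retinoblastoma and E2F families were tested, 4 were called lower and 0 higher (median log2 fold change -0.17). Beside these counts, 9.65% of all tested genes were called lower and 7.13% higher, and no test compared them. E2f1, a transcription factor that drives entry into S phase, fell to 0.698 to 0.983 FPKM, below all controls (-0.41 in log2; adjusted p = 0.0130 in limma), and did so in 10 of 10 fits on 9 libraries. Ccna2, the cyclin of S phase and G2, fell from 2.89 ± 1.27 to 0.820 ± 0.455 FPKM. Ccnd2, a close relative of Ccnd1, fell from 1.07 ± 0.156 to 0.634 ± 0.255 FPKM (-0.35, adjusted p = 0.0457), and Rbl2, a pocket protein gene of resting cells, from 3.83 ± 0.105 to 2.96 ± 0.495 FPKM (-0.30, 0.0425); both calls held in 2 of those fits. Ccna2 and Ccnd2 reached the expression minimum in 5 control and 3 labelled knockdown libraries each, so their inclusion rested on the group in which they were high.

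Mitotic genes that p53 and p21 are known to repress through the DREAM complex formed a further list. Of 16 genes 12 were tested, 11 were called lower and 0 higher, and the median log2 difference was -0.96. This describes the genes that reached the expression minimum: 8 of the 11 did so only with the help of control libraries, Top2a in 0 labelled knockdown libraries and Birc5 and Ccnb1 in 1 each, so their inclusion rested on the group in which they were high. The other 3, Ccnb2, Cdc20 and Aurka, reached it in all 5 labelled knockdown libraries. In fits on 9 libraries the call of Ccnb2 held in 10 of 10, and those of Cdc20 and Aurka in 3 of 10 each. Cks2, the tested gene that was not called, also reached the minimum in all 5, with a log2 fold change of 0.008 (limma adjusted p = 0.974). The list was also chosen with the fall of mitotic genes in these data known. Top2a, Kif20a, Ccnb1, Ccnb2, Cdk1, Mki67, Birc5 and Aurkb fell by 0.65 to 1.52 on the log2 scale. Control 1 was low in these genes, with 0.840 FPKM of Mki67 against 2.38 to 3.24 FPKM in the other controls. In labelled knockdown 2 and 3, where Cdkn1a was lowest, Mki67 stood at 0.284 and 0.477 FPKM, and in labelled knockdown 1 and 4, where Cdkn1a was highest, at 1.12 and 0.881 FPKM. Labelled knockdown 5, with Cdkn1a at 17.0 FPKM, held 0.418 FPKM of Mki67. Mki67 reached the expression minimum in 2 labelled knockdown libraries, and not every mitotic gene shared its order. Kif20a held 0.397 FPKM in labelled knockdown 1, against 0.401 FPKM in 3 and 0.567 FPKM in 5. The relation of Cdkn1a to these genes was not tested.

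**Figure D5:**
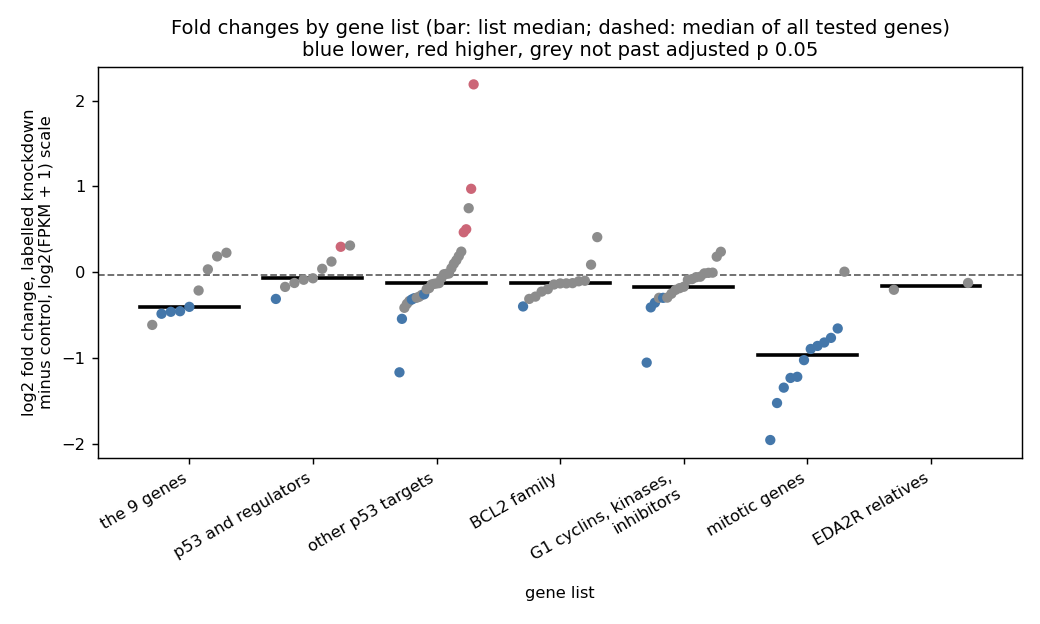
Log2 fold changes of tested genes by list (points; blue lower, red higher, grey not past the threshold), with the list median (black bar) and the median of all tested genes (dashed line, -0.04). Among the mitotic genes, 8 of the 11 blue points reached the expression minimum only with the help of control libraries, and the list of other p53 targets spreads on both sides of its median of -0.13.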

How the data were processed

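RNA of whole liver from 10 mice was purified with oligo(dT) and made into libraries with a dUTP second strand, per the labels' protocols. Per the submitters' processing notes, cutadapt 1.9, HISAT2 2.0.4 and StringTie 1.3.4d were used; the build named there is GRCh38, a human build, while the gene identifiers are those of mouse, so it is not known which mouse build the values rest on. Whether counting used strand is not stated, so overlapping antisense genes may share reads. The deposited values are FPKM per gene and library. The authors' deposited table also holds a fold change (a ratio), its log2 value, a p-value and a q-value for each gene, of which only the q-value and the authors' mark of significance were used. Whole reads could not be recovered from the FPKM, since at best 17.1 to 21.5% of values came out whole within a tolerance of 0.02, so the depth is unknown; 21653 to 23079 genes were above 0 per library.

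Groups came from the labels, 5 libraries each. log2(FPKM + 1) was tested with limma 3.58.1 (R 4.3.3), with an intensity trend, on genes of at least 0.5 FPKM in at least 5 libraries, with Benjamini-Hochberg adjustment over 13471 genes; fold changes are on this scale, which understates changes of low genes. Single values were tested by exact two-sided permutation in Python 3.11.15, over 252 assignments of all 10 libraries. Ratios without 1 library were tested over the fewer assignments of the remaining libraries. The limma step was tested on simulated data. Named genes were the 9 genes and, from each of 7 pathway lists, up to 8 called genes with the smallest p, or, in lists with under 2 calls, the leading 2 by p, with Trp53 and Lgals3, and the 5 genes most like Cdkn1a and Ccnd1; other genes named were chosen after their values were seen. From the list around Phlda3, 1 result is not reported here. The 9 genes and the lists were chosen with earlier results of these data known. Alternatives were 9 settings that keep all libraries and 10 fits that leave out 1. Promoter windows came from RefSeq (GRCm38.p6) and transcript lengths from GENCODE, available for 97.9% of tested genes.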

Additional observations from a re-analysis of the deposited data

Results flagged for a closer look

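Among 82 groups of 5 libraries checked, 7 held 1 library far from the others, where chance gives about 1 in 20. In Hipk2, control 2 held 1.21 FPKM against 1.76 to 1.94 in the other controls. In Sesn2, control 5 held 3.86 FPKM against 5.83 to 6.26. Control 1 was low in 3 mitotic genes, with 0.572 FPKM of Top2a against 1.24 to 1.59, 0.840 FPKM of Mki67 against 2.38 to 3.24, and 0.397 FPKM of Aurkb against 1.18 to 1.58. Labelled knockdown 4 was high in Btg2, at 20.5 FPKM against 7.71 to 10.1 in its group, and in Ccnb1, at 0.644 FPKM against 0.110 to 0.214.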

How the results depend on the processing

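Zmat3 and Ccng1 were called lower in all 9 settings that keep every library and all 10 fits that leave out 1. The number of the 9 genes called lower was 4, and became 2 with no expression minimum, 2 with a replicate block and 2 to 5 without 1 library. Phlda3 lost its call with no minimum (-0.48, limma adjusted p = 0.106) and with the block (-0.48, 0.0626), and ranged from -0.57 to -0.35 without 1 library. Eda2r lost it with a pseudocount of 0.1 (-1.11, 0.0576), no minimum (-0.40, 0.0913), the block (-0.40, 0.05003) and the length trend removed (-0.30, 0.0824), ranged from -0.48 to -0.32 without 1 library, and was not tested at a minimum of 1 FPKM. Ccnd1 was called with array weights (-0.81, 0.0248) and ranged from -0.77 to -0.46 without 1 library. Mdm2 ranged from -0.0166 to 0.0873, at -0.00472 without labelled knockdown 1, and Lgals3 from -0.0934 to 0.264 without 1 library, Lgals3 turning to -0.00961 without labelled knockdown 2. The Cdkn1a to Ccnd1 difference ranged from 0.30 to 0.53. The cause of these shifts was not tested.

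Genes called higher numbered 511 with no minimum and 440 to 954 without 1 library; those called lower numbered 682 with no minimum, 2047 with array weights, 720 with the length trend removed and 533 to 1733 without 1 library. Pathway genes called higher (5) became 2 with no minimum, 2 with the replicate block and 2 to 5 without 1 library; those called lower (24) became 11 and 8 to 25. Without 1 library, list medians ranged from -0.164 to -0.0306 for other p53 targets, -0.102 to -0.0290 for p53 regulators and -0.202 to -0.106 for G1 genes. List medians moved to 0.0203 for p53 regulators, -0.0624 for G1 genes and -0.0486 for Eda2r relatives with the length trend removed, to -0.0567 for Eda2r relatives with no minimum, and to -1.74 for mitotic genes with a pseudocount of 0.1. Same-numbered libraries did not deviate together (correlations of -0.015 to 0.114, 1 of 5 highest with its own number), so the numbers were not taken as pairs. With depth unknown, low values such as those of Eda2r carry no counting interval.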
